A study of Mus musculus with 12 samples.

Results

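The 10 genes S100a8, S100a9, Csf3r, Cd177, Lyz2, Chil3, Plac8, Ly6c2, Arg1 and Msr1 mark neutrophils, monocytes and the macrophages that monocytes become, and they were followed in mouse brain hemispheres 24 h after a stroke. They were chosen by name, with earlier results of these data known, 10 of the 20347 gene entries of the count table. All 10 have an entry. RNA-seq libraries were made from whole hemispheres without olfactory bulb and cerebellum of male mice aged 12 weeks, in 4 groups of 3. The groups were the ipsilateral (stroke) hemisphere of Lama4-/- mice, the ipsilateral hemisphere of wild-type (WT) mice, the contralateral hemisphere of Lama4-/- mice and the contralateral hemisphere of WT mice. Lama4 encodes the alpha 4 chain of laminin, a protein of the basement membrane of blood vessels. In every mouse the left middle cerebral artery was closed with a filament for 60 min and then reopened, so the contralateral side comes from operated animals and there is no unoperated group. Brains of 2 mice were pooled for each library. Per the labels, the mice were perfused with ice-cold PBS, and centrifugation and washing were used to remove blood with its immune cells, so leukocytes inside the vessels were meant to be depleted before sequencing. The labels name a single-cell kit for library preparation although each library is 1 bulk column, so which kit was used is unclear.

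Neutrophils are the first blood leukocytes to enter ischaemic brain, followed by monocytes, which turn into macrophages in the tissue. Both leave the blood through postcapillary venules, where they must cross the endothelium and its laminin-containing basement membrane. S100A8 and S100A9 pair to form calprotectin, the most plentiful protein of the neutrophil cytosol. Lyz2, Arg1 and Msr1 are also made by macrophages that live in the brain and by activated microglia, so in RNA of whole tissue their level does not name the cell that made them. In such bulk RNA, fewer cells of a type and less RNA per cell cannot be told apart.

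Libraries held 27537167 to 44113824 reads counted in genes, so 1 CPM (1 read in every 1000000 counted reads of that library) stands for 27.5 to 44.1 reads. Lama4 averaged 0.553 ± 0.306 CPM in Lama4-/- and 15.0 ± 0.122 CPM in WT ipsilateral hemispheres (SD, n = 3 each), and 0.279 ± 0.0696 CPM in Lama4-/- and 8.92 ± 1.68 CPM in WT contralateral hemispheres, as the labels say. The labelled tissue was checked against its markers. The 6 neuronal genes checked summed to 4606 to 5334 CPM in Lama4-/- ipsilateral, 5016 to 5088 CPM in WT ipsilateral, 4925 to 5710 CPM in Lama4-/- contralateral and 5363 to 5907 CPM in WT contralateral libraries, and none of these genes or of 6 astrocyte genes was at 0 in any library.

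The promoters of S100a8, S100a9 and Chil3 are shown because these genes had the 3 largest differences between Lama4-/- and WT ipsilateral hemispheres among the tested markers. Each runs from 250 bases before to 50 bases after the start site, 5′ to 3′ on the gene's strand, taken from RefSeq on build GRCm38.p6, whose table holds 8 of the 10 genes (not Arg1 or Msr1). The motifs searched on both strands were TTGCNNAA for C/EBP, GAGGAAG for PU.1, GGGA followed by any 4 bases and CC for NF-kappaB, and TGANTCA for AP-1, the first 2 being factors of myeloid cells. They occur in 10.8%, 13.5%, 20.5% and 7.93% of all 27025 promoters of that length. Capitals mark a match. In S100a8 it is PU.1 at -171, in S100a9 C/EBP at -236 and in Chil3 NF-kappaB at -231, counted from the start site. Of the 8 promoters 5 held any match, and a match is a string of letters, not a measured binding site.
S100a8, chr3:90668821-90669120, plus strand: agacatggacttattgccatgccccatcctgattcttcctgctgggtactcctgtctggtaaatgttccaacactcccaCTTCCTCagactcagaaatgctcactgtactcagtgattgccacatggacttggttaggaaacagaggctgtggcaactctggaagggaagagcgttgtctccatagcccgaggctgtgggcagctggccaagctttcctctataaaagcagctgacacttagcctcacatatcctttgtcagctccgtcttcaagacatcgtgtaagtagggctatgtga
S100a9, chr3:90695672-90695971, minus strand: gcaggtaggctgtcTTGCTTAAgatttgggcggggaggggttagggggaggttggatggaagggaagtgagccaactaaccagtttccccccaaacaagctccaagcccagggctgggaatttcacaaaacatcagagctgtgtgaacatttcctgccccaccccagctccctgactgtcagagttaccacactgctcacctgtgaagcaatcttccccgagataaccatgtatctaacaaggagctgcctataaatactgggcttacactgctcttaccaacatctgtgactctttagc
Chil3, chr3:106167515-106167814, minus strand: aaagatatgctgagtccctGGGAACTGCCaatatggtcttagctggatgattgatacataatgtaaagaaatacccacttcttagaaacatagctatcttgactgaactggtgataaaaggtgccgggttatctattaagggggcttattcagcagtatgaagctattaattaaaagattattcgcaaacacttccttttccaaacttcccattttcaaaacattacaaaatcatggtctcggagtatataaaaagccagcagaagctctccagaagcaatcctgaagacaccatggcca

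S100a8 (ENSMUSG00000056054, chromosome 3, 90668978 to 90670035, plus strand, 3 exons) and S100a9 (ENSMUSG00000056071, chromosome 3, 90692632 to 90695721, minus strand, 3 exons) are neighbours, 22.6 kb apart (mm10, GENCODE M21, as for all genes here). Csf3r (ENSMUSG00000028859), the receptor for the neutrophil growth factor G-CSF, lies on chromosome 4 from 126024550 to 126044440, and Cd177 (ENSMUSG00000052212), a neutrophil surface glycoprotein, on chromosome 7 from 24743983 to 24760311. Lyz2 (ENSMUSG00000069516), the lysozyme of myeloid cells, lies on chromosome 10 from 117277331 to 117282321. Chil3 (ENSMUSG00000040809), which encodes the secreted chitinase-like protein Ym1, lies on chromosome 3 from 106147554 to 106167564. Plac8 (ENSMUSG00000029322), a small cysteine-rich protein of myeloid cells, lies on chromosome 5 from 100553725 to 100572245. Ly6c2 (ENSMUSG00000022584), a surface protein of inflammatory monocytes, lies on chromosome 15 from 75108158 to 75111970. Arg1 (ENSMUSG00000019987), arginase 1, lies on chromosome 10 from 24915221 to 24927484, and Msr1 (ENSMUSG00000025044), the class A scavenger receptor, on chromosome 8 from 39581685 to 39642673. Arg1 lies 14.0 Mb from Lama4 on the same chromosome. The counts of these genes are whole-gene sums, so no exon or UTR can be told apart.

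Ly6c2 has the closest near copy of the 10. Its coding sequence differs from that of Ly6c1, a gene of brain endothelium 59.3 kb away (chromosome 15, 75044018 to 75048830, minus strand), at 9 of 396 bases (97.7% identity). The first 150 coding bases of both are shown to make this visible, with the 6 differing bases in capitals (GENCODE M21 transcripts, mm10, minus strand, 5′ to 3′).
Ly6c2: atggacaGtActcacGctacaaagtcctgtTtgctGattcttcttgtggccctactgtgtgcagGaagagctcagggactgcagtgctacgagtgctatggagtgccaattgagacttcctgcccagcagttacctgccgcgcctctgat
Ly6c1: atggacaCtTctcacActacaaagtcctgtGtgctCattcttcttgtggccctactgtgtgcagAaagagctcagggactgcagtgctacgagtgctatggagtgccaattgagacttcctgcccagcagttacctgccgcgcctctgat
Of all 50-base windows of the Ly6c2 transcript, 67% occur in no other gene's transcripts, against 70.6% for Chil3, 84.6% for Lyz2, 88.5% for Csf3r, 94.3% for Cd177 and 100% for S100a8, S100a9, Plac8, Arg1 and Msr1. The read length is not given in the sources used here, and how shared reads were counted is not stated. The near copies of Chil3 and Lyz2 were low: Chil4, which is 94.4% identical to Chil3, reached at most 2 reads, and Lyz1, which is 95.1% identical to Lyz2, at most 5 reads in a library. Marco, a scavenger receptor related to Msr1, reached at most 0.533 CPM.

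S100a8 was highest in 2 of the 3 Lama4-/- ipsilateral hemispheres. It stood at 3.17, 5.46 and 0.468 CPM in Lama4-/- and 1.00, 1.25 and 0.578 CPM in WT ipsilateral hemispheres, and at 0.254, 0.447 and 0.333 CPM in Lama4-/- and 0.254, 0.436 and 0.204 CPM in WT contralateral hemispheres (replicates 1, 2 and 3 in that order throughout). The third Lama4-/- stroke library lay below all 3 WT stroke libraries, so the genotypes overlapped, while both stroke groups lay wholly above their contralateral groups. S100a9 followed it, with 4.69, 7.0 and 0.842 CPM in Lama4-/- and 1.16, 1.02 and 0.716 CPM in WT ipsilateral hemispheres, and 0.687, 0.282 and 0.399 CPM in Lama4-/- and 0.507, 0.508 and 0.453 CPM in WT contralateral hemispheres. Reads of both partners summed to 310, 436 and 42 in Lama4-/- and 86, 80 and 47 in WT stroke libraries, so replicate 3 of the Lama4-/- group had about as few as WT replicate 3. The order of group means was Lama4-/- ipsilateral, WT ipsilateral and then the contralateral groups for both genes, and the neighbours Lama4-/- and WT overlapped in either hemisphere.

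Csf3r kept to a narrow range, from 4.56 to 7.85 CPM over all 12 libraries. It stood at 6.70, 7.85 and 5.74 CPM in Lama4-/- and 5.07, 4.56 and 5.32 CPM in WT ipsilateral hemispheres, against 4.73, 4.56 and 5.79 CPM in Lama4-/- and 5.30, 4.61 and 5.96 CPM in WT contralateral hemispheres. The Lama4-/- stroke libraries lay above the WT stroke libraries, but replicate 3 did not exceed the highest contralateral library. Cd177 was close to absent, with 8, 4 and 0 reads in Lama4-/- and 4, 3 and 3 reads in WT ipsilateral libraries, and 5, 4 and 0 reads in Lama4-/- and 1, 0 and 3 reads in WT contralateral libraries. At these counts no difference in Cd177 was detectable.

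Lyz2 stood at 24.3, 21.5 and 19.8 CPM in Lama4-/- and 12.2, 15.1 and 16.1 CPM in WT ipsilateral hemispheres, and at 6.54, 9.36 and 8.25 CPM in Lama4-/- and 9.02, 6.86 and 8.93 CPM in WT contralateral hemispheres. The 2 stroke groups did not overlap each other or the contralateral groups, while the 2 contralateral groups overlapped. Chil3 showed the same order over a wider range, with 6.47, 2.91 and 1.06 CPM in Lama4-/- and 0.527, 0.683 and 0.606 CPM in WT ipsilateral hemispheres, against 0.229, 0.212 and 0.133 CPM in Lama4-/- and 0.197, 0.254 and 0.159 CPM in WT contralateral hemispheres. Its Lama4-/- stroke libraries spread widely, from 34 to 255 reads, while the WT stroke libraries held 21 to 24 reads.

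Plac8 gave 20, 15 and 8 reads in Lama4-/- and 6, 2 and 6 reads in WT ipsilateral libraries, and 6, 2 and 3 reads in Lama4-/- and 3, 3 and 3 reads in WT contralateral libraries. It was thus low throughout, with its 3 highest libraries those of the Lama4-/- stroke group. Ly6c2 held at most 2 reads in any library, with 2, 0 and 1 reads in Lama4-/- and 1, 2 and 1 reads in WT ipsilateral libraries, 0, 1 and 2 reads in Lama4-/- contralateral libraries, and no read in the 3 WT contralateral libraries. No fold change is given for it. Ly6c1 was plentiful, with 43.9 ± 5.71 CPM in Lama4-/- and 39.8 ± 9.23 CPM in WT ipsilateral hemispheres, and 25.6 ± 2.14 CPM in Lama4-/- and 25.9 ± 4.17 CPM in WT contralateral hemispheres (SD, n = 3 each). It rose after stroke by 0.69 ± 0.16 in Lama4-/- (log2, SE, edgeR adjusted p = 0.00853) and 0.55 ± 0.16 in WT (edgeR adjusted p = 0.0372).

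Arg1 stood at 5.30, 7.77 and 1.65 CPM in Lama4-/- and 0.804, 2.73 and 1.24 CPM in WT ipsilateral hemispheres, against 0.331, 0.188 and 0.0998 CPM in Lama4-/- and 0.197, 0.291 and 0.113 CPM in WT contralateral hemispheres. Every stroke library exceeded every contralateral one, and the stroke groups overlapped because Lama4-/- replicate 3 lay below WT replicate 2. Msr1 stood at 43.3, 31.0 and 21.8 CPM in Lama4-/- and 17.3, 36.4 and 20.1 CPM in WT ipsilateral hemispheres, and at 2.24, 1.88 and 0.666 CPM in Lama4-/- and 0.845, 2.00 and 1.18 CPM in WT contralateral hemispheres. All 6 stroke libraries exceeded all 6 contralateral ones, the stroke groups overlapped, and WT replicate 2 was the second highest.

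**Figure D1:**
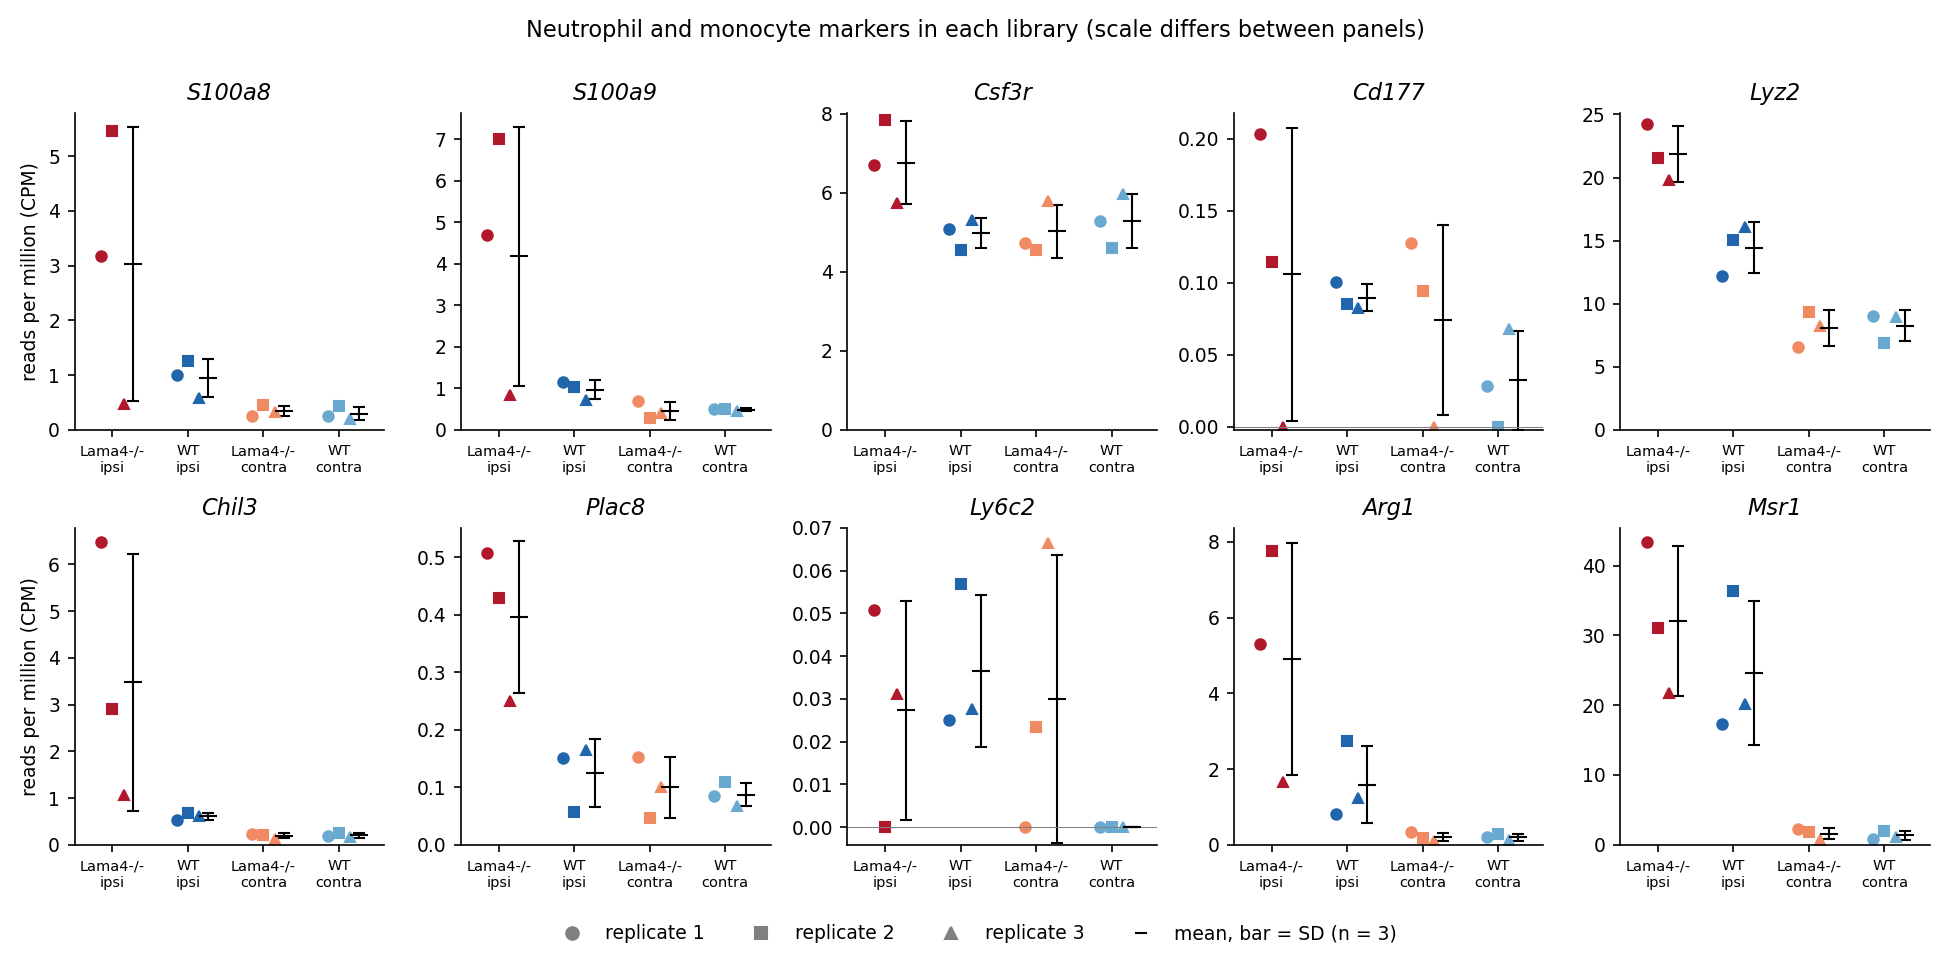
Levels in CPM (vertical axes, a separate scale in each panel) of the 10 markers in the 12 libraries, with 1 symbol per library, its shape giving the replicate number, and the mean with SD (n = 3) beside each group. S100a8, S100a9, Chil3 and Arg1 are highest in replicates 1 and 2 of the Lama4-/- ipsilateral group, and replicate 3 of that group lies near the WT ipsilateral libraries for S100a8, S100a9 and Arg1.

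Stroke and contralateral hemispheres were then compared within each genotype. In Lama4-/- mice 6 of the 7 markers that could be tested rose in the ipsilateral hemisphere, against 12.8% of all 15351 genes tested. Cd177, Plac8 and Ly6c2 did not pass the filter on low counts, and Chil3 and Arg1 passed it through the stroke hemispheres, since neither passed in the contralateral libraries alone. Arg1 rose by 4.42 ± 0.68 on the log2 scale (SE, edgeR adjusted p = 0.000858), about 21.4-fold. Msr1 rose by 4.19 ± 0.45 (edgeR adjusted p = 0.000152) and Chil3 by 4.05 ± 0.59 (edgeR adjusted p = 0.000473). S100a9 rose by 3.10 ± 0.61 (edgeR adjusted p = 0.00384), S100a8 by 3.03 ± 0.69 (edgeR adjusted p = 0.00866) and Lyz2 by 1.35 ± 0.15 (edgeR adjusted p = 4.29e-05). Csf3r had a log2 fold change of 0.35 ± 0.15 and did not pass (edgeR adjusted p = 0.103). The call of S100a8 was lost with limma voom (adjusted p = 0.0529, 12.8% of all genes called higher) and with edgeR on the 6 Lama4-/- libraries alone (adjusted p = 0.0587, 10.3% called higher). Without the filter on low counts Plac8 could be tested as well and rose by 1.89 (edgeR adjusted p = 0.0117, 10.6% of genes called higher), while in WT it had 0.48 (edgeR adjusted p = 0.674, 8.06% called higher). The median over the 7 markers was 3.10, against -0.01 over all genes tested.

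In WT mice 3 of the 7 tested markers rose, against 9.91% of all genes tested. These were Msr1, by 4.17 ± 0.47 on the log2 scale (SE, edgeR adjusted p = 0.000283), Arg1, by 2.97 ± 0.76 (edgeR adjusted p = 0.0214), and Lyz2, by 0.73 ± 0.15 (edgeR adjusted p = 0.00482). S100a8 had 1.65 ± 0.80 (edgeR adjusted p = 0.192), Chil3 1.53 ± 0.70 (edgeR adjusted p = 0.167), S100a9 0.92 ± 0.68 (edgeR adjusted p = 0.406) and Csf3r -0.16 ± 0.15 (edgeR adjusted p = 0.504), and none of these 4 passed. With the pool of mice as a replicate block, which sets each stroke hemisphere against the other side of the same numbered pool, 5 markers passed in WT, against 13.2% of all genes, and 6 in Lama4-/-, against 16.2%. S100a8 (1.59, edgeR adjusted p = 0.0440) and Chil3 (1.51, edgeR adjusted p = 0.0132) were the added ones. On the 6 WT libraries alone 6 passed, with S100a9 too (edgeR adjusted p = 0.0399), against 11.3% of all genes. The call of Arg1 in WT was lost without WT contralateral replicate 1 (edgeR adjusted p = 0.0691), WT contralateral replicate 3 (edgeR adjusted p = 0.0979) or WT ipsilateral replicate 2 (edgeR adjusted p = 0.0776), and with limma voom (adjusted p = 0.0651, 9.6% of all genes called higher).

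Of the 7 tested markers 6, all but Csf3r, had every stroke library above every contralateral library, in Lama4-/- mice (25.9% of all genes tested) and in WT mice (29.9%). The same 6 were higher on the stroke side in 3 of 3 numbered pools of either genotype. By pool, the log2 ratio of the 2 hemispheres, with 0.1 CPM added to both, ran from 2.32 to 4.32 for Chil3 in Lama4-/- and from 1.08 to 1.45 in WT. For Arg1 it ran from 3.13 to 4.77 in Lama4-/- and from 1.6 to 2.86 in WT, and for Lyz2 from 1.19 to 1.88 in Lama4-/- and from 0.43 to 1.12 in WT. The ratios of Csf3r ran from -0.01 to 0.77 in Lama4-/- and from -0.16 to -0.02 in WT. These 4 of the 7 tested markers had every Lama4-/- pool above every WT pool, Csf3r by a small margin, as did 5.46% of all genes tested. The ratios of S100a9 ran from 0.92 to 4.21 in Lama4-/- and from 0.56 to 1.05 in WT, those of S100a8 from 0.39 to 3.34 in Lama4-/- and from 1.16 to 1.64 in WT, and those of Msr1 from 3.97 to 4.84 in Lama4-/- and from 3.98 to 4.20 in WT, so the genotypes overlapped. Csf3r was higher on the stroke side in 2 of 3 Lama4-/- pools and lower in 3 of 3 WT pools.

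**Figure D2:**
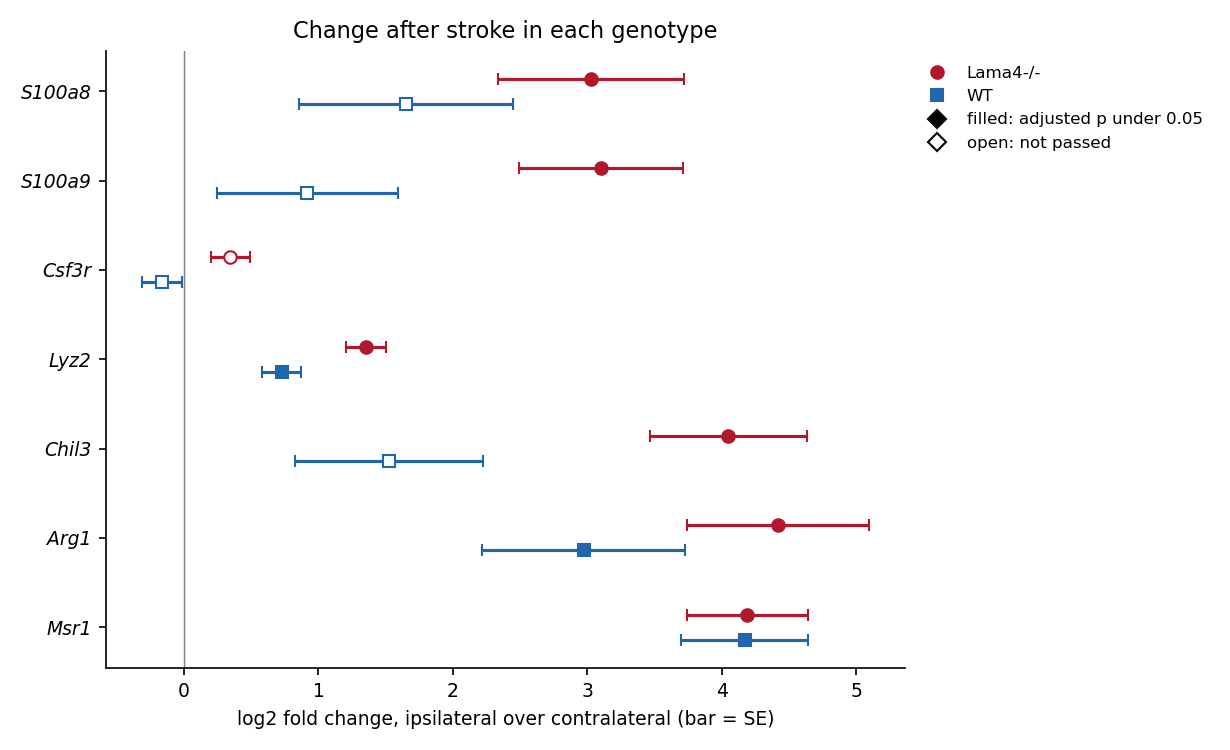
Log2 fold change of the ipsilateral over the contralateral hemisphere (horizontal axis, bars = SE) for the 7 tested markers in Lama4-/- mice (circles) and WT mice (squares). Filled symbols passed at an adjusted p under 0.05, which 6 markers did in Lama4-/- and 3 in WT; Msr1 has nearly the same value in both, 4.19 and 4.17.

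The ipsilateral hemispheres of Lama4-/- and WT mice were set against each other for the effect of the genotype on the stroke tissue. All 7 tested markers had a log2 fold change above 0, as did 49.9% of all genes, and edgeR called none of them, as it called only 0.00658% of all 15208 genes tested, which is Lama4 itself. The log2 fold changes were 2.5 ± 0.63 for Chil3, 2.08 ± 0.69 for S100a9, 1.65 ± 0.76 for S100a8, 1.61 ± 0.64 for Arg1, 0.58 ± 0.12 for Lyz2, 0.42 ± 0.14 for Csf3r and 0.36 ± 0.35 for Msr1 (SE, edgeR adjusted p = 0.989 for each). Before adjustment 5 of the 7, namely S100a9, Csf3r, Lyz2, Chil3 and Arg1, had an edgeR p under 0.05 with a positive sign, against 1.58% of all genes. The median over the 7 was 1.61, against -0.00 over all genes tested. The markers and lists were chosen with earlier results of these data known, so such shares are not those of an independent set. Chil3, Lyz2 and Csf3r had every Lama4-/- library above every WT library, as did 5.5% of all genes.

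The call depended on the tool. DESeq2 called Chil3 (2.49, adjusted p = 0.00307) and Lyz2 (0.57, adjusted p = 0.0213) as higher in Lama4-/-, when 0.0395% of all genes were called higher. In the authors' deposited table Chil3 was likewise past the threshold (log2 fold change 2.5, adjusted p = 0.00401), while S100a9 (adjusted p = 0.129), Lyz2 (adjusted p = 0.156) and Arg1 (adjusted p = 0.868) were not. Leaving out single libraries moved the values. Without Lama4-/- replicate 3, the library with little S100a8 and S100a9, the difference was 2.55 for S100a9 (edgeR adjusted p = 0.0827), 2.15 for S100a8 (edgeR adjusted p = 0.442) and 2.92 for Chil3 (edgeR adjusted p = 0.158). Without Lama4-/- replicate 2 it was 1.5 for S100a9 and 0.94 for S100a8, and without Lama4-/- replicate 1 it was 1.70 for Chil3. For Msr1 it was 0.089 without Lama4-/- replicate 1 and 0.75 without WT replicate 2, and for Arg1 1.12 without Lama4-/- replicate 2 and 2.25 without WT replicate 2. The sign stayed positive for all 7 markers in all 13 alternatives tried.

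In the contralateral hemispheres 5 markers could be tested and none was called, as 0.0134% of all 14958 genes were. The differences between Lama4-/- and WT were 0.27 ± 0.39 for S100a8, 0.30 ± 0.43 for Msr1, -0.06 ± 0.15 for Lyz2, -0.10 ± 0.15 for Csf3r and -0.11 ± 0.35 for S100a9 (log2, SE, edgeR adjusted p between 0.776 and 0.906). Chil3 and Arg1 were under the filter on this side, with 4 to 9 reads of Chil3 in Lama4-/- and 7 reads in each WT library, and 3 to 13 reads of Arg1 in Lama4-/- and 5 to 8 reads in WT libraries. Each of these genes overlapped between the genotypes, while 10.2% of all genes tested had every Lama4-/- library above every WT library.

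**Figure D3:**
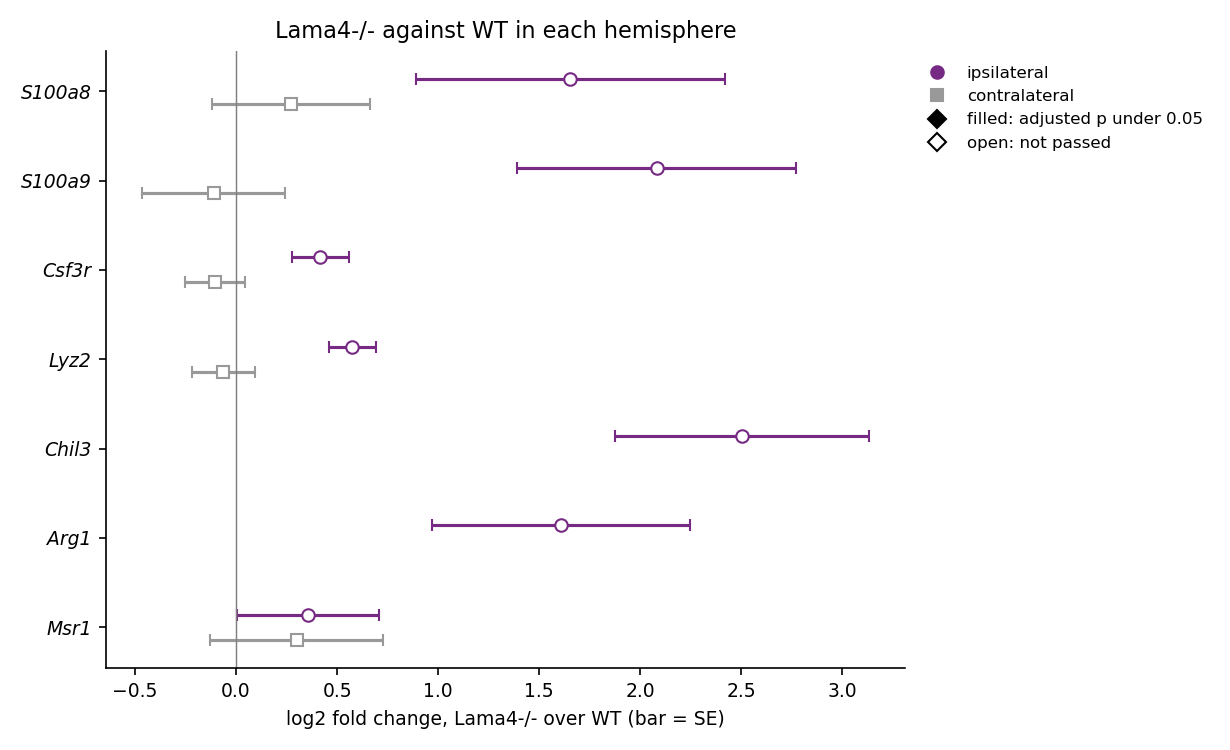
Log2 fold change of Lama4-/- over WT (horizontal axis, bars = SE) in the ipsilateral hemisphere (circles, 7 tested markers) and the contralateral hemisphere (squares, 5 tested markers). All symbols are open because none passed at an adjusted p under 0.05 in edgeR; ipsilateral values run from 0.36 for Msr1 to 2.5 for Chil3 and contralateral values from -0.11 to 0.30.

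Whether the stroke change itself differed between Lama4-/- and WT was tested as an interaction. No marker passed, and in edgeR no gene did (0% of 15351 genes, edgeR adjusted p = 0.9996 for each marker). DESeq2 and limma voom called no gene higher (0% of 15351 genes). The Lama4-/- minus WT differences of the log2 changes were 2.52 ± 1.01 for Chil3, 2.18 ± 0.94 for S100a9, 1.44 ± 1.18 for Arg1, 1.38 ± 1.12 for S100a8, 0.63 ± 0.21 for Lyz2, 0.51 ± 0.21 for Csf3r and 0.02 ± 0.69 for Msr1 (SE). Before adjustment Lyz2, Chil3, Csf3r and S100a9 had an edgeR p under 0.05 with a positive sign, against 0.743% of all genes. With single ipsilateral libraries left out, the difference for S100a8 ran from 0.67 without Lama4-/- replicate 2 to 1.88 without Lama4-/- replicate 3, and that for Arg1 from 0.96 without Lama4-/- replicate 2 to 2.08 without WT replicate 2. On all 12 libraries more markers passed in Lama4-/- than in WT mice. On each genotype's own 6 libraries S100a8 lost its call in Lama4-/-, while S100a8, S100a9 and Chil3 gained one in WT. Which genotype had more calls thus depended on the fit. The interaction test did not show the stroke change of any marker to differ between the genotypes. These comparisons share libraries: the stroke change in Lama4-/- and the ipsilateral difference rest on the same 3 Lama4-/- stroke libraries.

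Replicates 1 and 2 of the Lama4-/- stroke group were the 2 highest of the 6 ipsilateral libraries in CPM for 6 of the 7 tested markers, as they were for 15% of all 15208 genes. The exception was Msr1, for which WT ipsilateral replicate 2 was the second highest. The markers were not all low in replicate 3: Lyz2 was still above all WT libraries in Lama4-/- replicate 3, at 19.8 CPM, whereas S100a8 there was at 0.468 CPM. Over the 6 ipsilateral libraries and 13997 genes, the genes whose log2 CPM was most like the mean of S100a8 and S100a9 were Itgax (r = 0.994), which encodes the integrin CD11c, Pold2 (r = 0.993), Rps6ka1 (r = 0.992), Foxj1 (r = 0.986) and Nfkb1 (r = 0.981). Those most like the mean of Arg1 and Msr1 were Il4r (r = 0.999), the receptor for interleukin 4, Clec4d, Mtmr10 and Csf2rb (r = 0.992 each) and Mlf1 (r = 0.991). These are descriptions of 6 libraries ranked over many genes, and the libraries differ in both genotype and stroke response.

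Of 22 further neutrophil genes 11 could be tested after stroke. Of these 11, 5 passed the filter on low counts only with the stroke libraries included, Cxcr2 and Clec4d among them, so a higher level there was built into their being tested. In Lama4-/- mice 6 of the 11 rose and none fell, against 12.8% of all genes called higher, and in WT mice 1 rose and none fell, against 9.91%. Between Lama4-/- and WT ipsilateral hemispheres none was called, and all 11 tested genes had a log2 fold change above 0, against 49.9% of all genes. In this comparison low genes such as Cxcr2 passed the filter partly through the higher Lama4-/- libraries, so a positive sign was partly built in. Cxcr2, the receptor by which neutrophils follow CXC chemokines, stood at 1.07, 1.31 and 0.156 CPM in Lama4-/- and 0.226, 0.427 and 0.138 CPM in WT ipsilateral libraries, and at no more than 0.0453 CPM on the other side. It rose by 5.26 ± 0.95 in Lama4-/- (log2, SE, edgeR adjusted p = 0.00176) and had 3.02 ± 1.09 in WT (edgeR adjusted p = 0.0798). Clec4d, a C-type lectin of neutrophils and macrophages, rose by 4.88 ± 0.86 in Lama4-/- (edgeR adjusted p = 0.00185) and had 2.63 ± 0.87 in WT (edgeR adjusted p = 0.0633). Lcn2, a neutrophil granule protein that reactive astrocytes also make, rose in both, by 4.25 ± 0.83 in Lama4-/- (edgeR adjusted p = 0.00539) and 3.95 ± 0.84 in WT (edgeR adjusted p = 0.0115), and was as high in WT replicate 2 (63.0 CPM) as in Lama4-/- replicate 1 (60.9 CPM). Mmp9, a matrix protease stored in neutrophils, rose by 0.86 ± 0.24 in Lama4-/- (edgeR adjusted p = 0.0197) and had 0.36 ± 0.25 in WT (edgeR adjusted p = 0.369). The other 11 genes were too low to test. Of these, Camp, Ltf, Ngp and Padi4 (at most 15 reads) had lower mean CPM in Lama4-/- than in WT ipsilateral libraries. The rest had higher or nearly equal means in Lama4-/-. Ly6g, the defining surface marker of mouse neutrophils, had at most 4 reads and was at 0 in 8 of 12 libraries, and the granule genes Elane, Camp, Ltf, Ngp and Mpo, which are transcribed in bone-marrow precursors, had at most 2, 7, 6, 18 and 13 reads; these 6 were picked for mention after their counts were seen.

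Of 22 further monocyte and macrophage genes 19 could be tested, 5 of them only with the stroke libraries included. After stroke 13 rose in Lama4-/- (12.8% of all genes) and 10 in WT (9.91%), and none fell. None was called between Lama4-/- and WT ipsilateral hemispheres, and 15 of 19 were above 0, against 49.9% of all genes. Here too, low genes could pass the filter partly through higher Lama4-/- libraries, which favours a positive sign. Spp1, osteopontin, rose by 3.48 ± 0.39 in Lama4-/- (log2, SE, edgeR adjusted p = 0.000238) and 2.90 ± 0.38 in WT (edgeR adjusted p = 0.000869). Fcgr4, an activating Fc receptor, rose by 3.00 ± 0.29 in Lama4-/- (edgeR adjusted p = 1.96e-05) and 2.31 ± 0.28 in WT (edgeR adjusted p = 0.000147). Il1b, interleukin 1 beta, was the gene of the list nearest to a genotype call, at 2.23, 2.28 and 1.68 CPM in Lama4-/- and 0.653, 0.569 and 0.606 CPM in WT ipsilateral libraries. All 3 Lama4-/- libraries exceeded all WT libraries, as for 5.5% of all genes, with a difference of 1.73 ± 0.21 (edgeR adjusted p = 0.133). Unlike S100a8, it was high in Lama4-/- replicate 3 as well. Ccr2, the receptor by which inflammatory monocytes leave the bone marrow, stood at 3.17, 2.80 and 0.842 CPM in Lama4-/- and 1.18, 0.427 and 1.21 CPM in WT ipsilateral libraries. Nr4a1, also an immediate-early gene of neurons, stood at 34.8, 33.8 and 32.4 CPM in Lama4-/- and 106.1, 63.3 and 76.6 CPM in WT ipsilateral libraries. It was not called (-1.31 ± 0.17, edgeR adjusted p = 0.279). Its difference had the same sign in the contralateral hemispheres (-1.56 ± 0.44, edgeR adjusted p = 0.510), and its interaction was 0.24 ± 0.51 (edgeR adjusted p = 0.9996), so it was not particular to the stroke side.

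Of 23 genes for leukocyte recruitment (chemokines, growth factors, selectins and integrins) 22 could be tested, 9 of them only with the stroke libraries included. In Lama4-/- mice 17 rose after stroke, against 12.8% of all genes, and 1 fell, and in WT mice 13 rose, against 9.91%, and 1 fell. The gene that fell was Selplg, the selectin ligand PSGL-1, which resident microglia also make, by 0.84 in Lama4-/- and 0.67 in WT (log2, edgeR adjusted p = 0.00107 and 0.00682). Between Lama4-/- and WT ipsilateral hemispheres none was called, and all 22 had a log2 fold change above 0, against 49.9% of all genes. Low genes of this list could also pass the filter partly through higher Lama4-/- libraries, so that count is partly built in. Ccl3, which draws monocytes, rose by 4.37 ± 0.25 in Lama4-/- (log2, SE, edgeR adjusted p = 3.20e-07) and 4.25 ± 0.27 in WT (edgeR adjusted p = 1.43e-06). Ccl7, a ligand of Ccr2, rose by 4.44 ± 0.40 in Lama4-/- (edgeR adjusted p = 1.05e-05) and 2.98 ± 0.38 in WT (edgeR adjusted p = 0.000208). Sele, the endothelial selectin on which leukocytes roll, stood at 1.75, 3.94 and 4.30 CPM in Lama4-/- and 0.954, 1.17 and 1.16 CPM in WT ipsilateral libraries, a difference of 1.58 ± 0.34 (edgeR adjusted p = 0.989). Icam1, the endothelial ligand of leukocyte integrins, stood at 19.6, 23.8 and 15.8 CPM in Lama4-/- and 11.1, 15.4 and 12.1 CPM in WT ipsilateral libraries, a difference of 0.59 ± 0.17 (edgeR adjusted p = 0.989). For both genes every Lama4-/- library lay above every WT library, as for 5.5% of all genes, for Icam1 by a small margin. Replicate 3 of Lama4-/- had the highest Sele and the lowest S100a8 of its group.

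**Figure D4:**
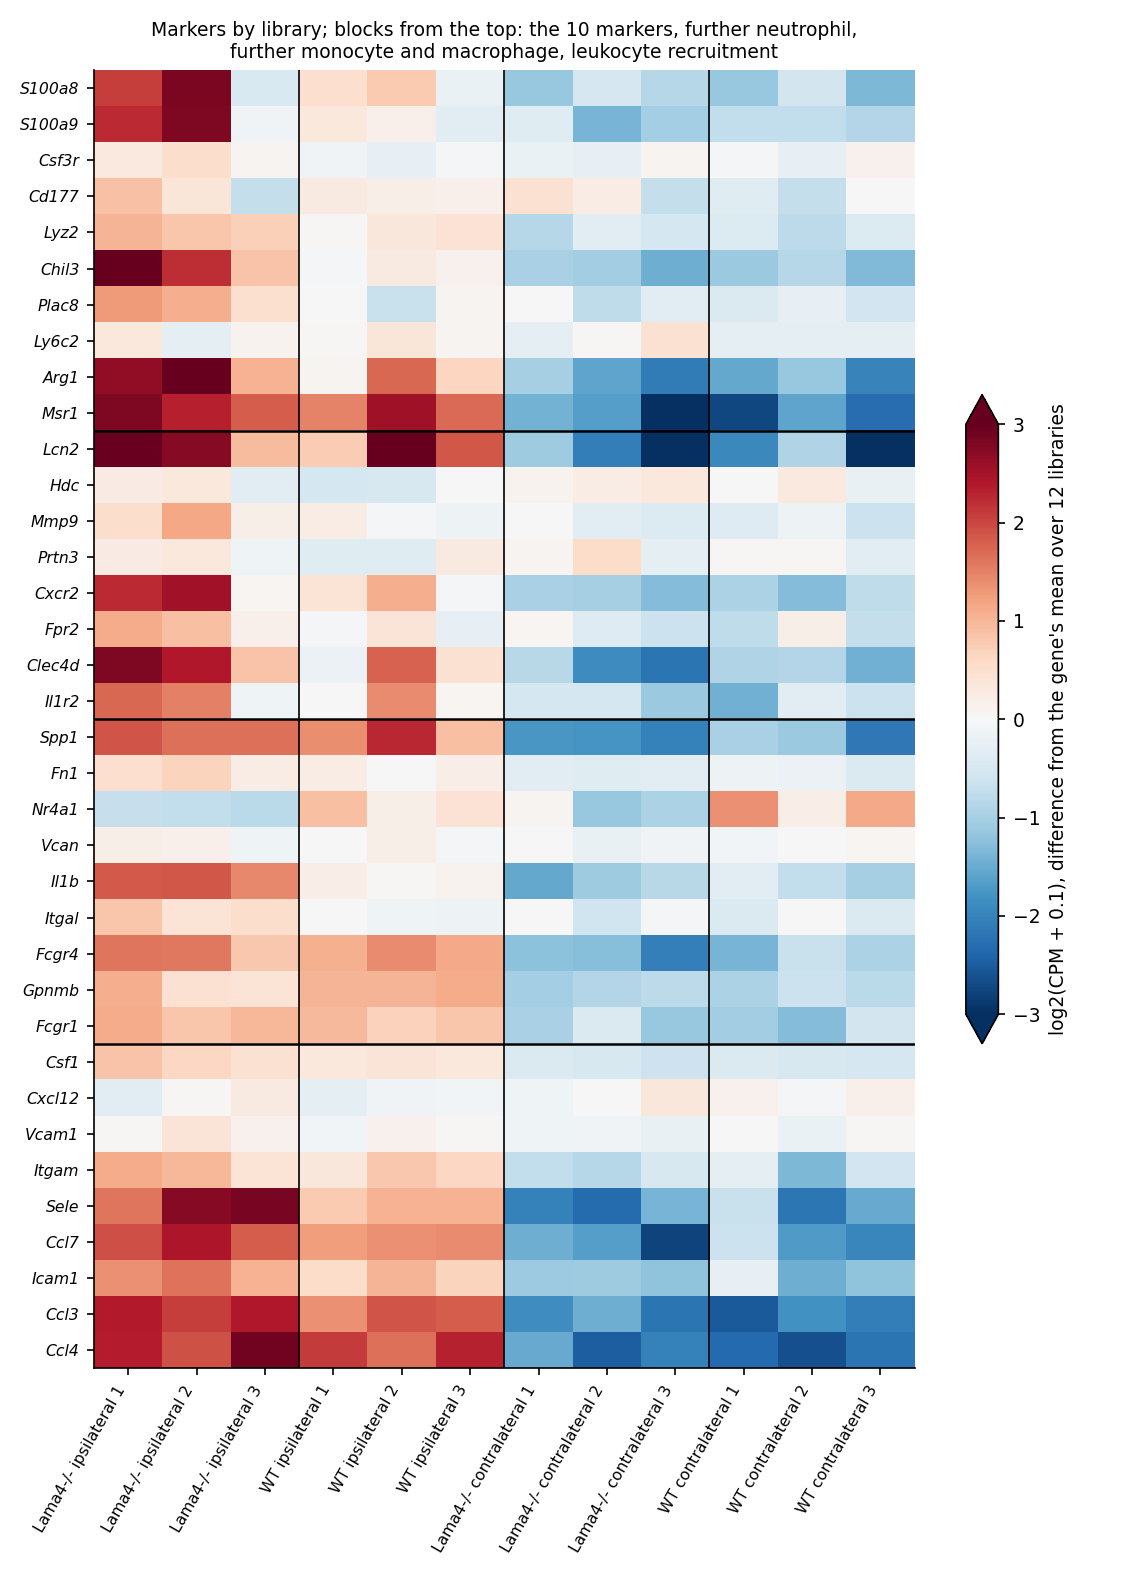
Log2(CPM + 0.1) of each gene in the 12 libraries (columns), as the difference from that gene's mean over all 12, with colours cut at -3 and 3. Rows show the 10 markers and, below each line, genes of the further neutrophil, further monocyte and macrophage, and leukocyte recruitment lists. S100a8, S100a9, Cxcr2 and Clec4d are darkest in the first 2 columns, whereas Sele, Ccl3 and Il1b are high in all 3 Lama4-/- ipsilateral columns. Ccl3 and, less so, Sele are high in the WT ipsilateral columns too.

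Markers of other cells were summed beside these results. Over all 15351 genes tested, 12.8% were called higher after stroke in Lama4-/- and 9.91% in WT. Called lower were 1611 genes in Lama4-/- and 840 in WT. In the border-associated macrophage and platelet lists 1 gene each passed the filter on low counts only with the stroke libraries included. Homeostatic microglia markers (10 genes, none at 0) summed to 427 to 465 CPM in Lama4-/- and 391 to 471 CPM in WT ipsilateral libraries, and to 297 to 375 CPM in Lama4-/- and 260 to 344 CPM in WT contralateral libraries. After stroke 2 of them rose and 2 fell in Lama4-/- and 3 rose and 1 fell in WT. Border-associated macrophage markers (10 genes) summed to 73.9 to 106 CPM in Lama4-/- and 77.5 to 108 CPM in WT ipsilateral libraries, against 39.3 to 42.2 CPM in Lama4-/- and 40.0 to 43.3 CPM in WT contralateral libraries, and 6 rose in Lama4-/- and 5 in WT. Endothelial markers (8 genes) summed to 347 to 466 CPM in Lama4-/- and 294 to 394 CPM in WT ipsilateral libraries, and to 239 to 281 CPM in Lama4-/- and 244 to 267 CPM in WT contralateral libraries, with 5 genes up and 1 down after stroke in Lama4-/- and 4 up and 1 down in WT. Platelet markers (6 genes) summed to 14.9 to 19.5 CPM in Lama4-/- and 14.1 to 15.1 CPM in WT ipsilateral libraries, and to 12.5 to 15.4 CPM in Lama4-/- and 11.2 to 13.4 CPM in WT contralateral libraries. Of the 4 that could be tested, 3 rose and 1 fell after stroke in Lama4-/- and 1 rose in WT, and Pf4 is also 1 of the border-associated macrophage markers. Ppbp, a platelet chemokine, stood at 0.406, 0.828 and 0.156 CPM in Lama4-/- and 0.0251, 0.313 and 0.0275 CPM in WT ipsilateral libraries, so it was highest in the same 2 libraries as S100a8. What part platelets, endothelium or resident macrophages had in the levels of the 10 markers was not tested.

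Lymphocytes left little signal. Natural killer cell markers (6 genes) summed to 0.114 to 0.228 CPM in Lama4-/- and 0.0753 to 0.142 CPM in WT ipsilateral libraries, and to 0.0666 to 0.165 CPM in Lama4-/- and 0.0907 to 0.182 CPM in WT contralateral libraries. The B cell sum was above that of WT in all 3 Lama4-/- stroke libraries, which was not tested: its markers (5 of 6 genes in the table) summed to 0.718 to 1.01 CPM in Lama4-/- and 0.606 to 0.655 CPM in WT ipsilateral libraries, and to 0.483 to 0.699 CPM in Lama4-/- and 0.508 to 0.657 CPM in WT contralateral libraries. T cell markers (7 of 8 genes in the table) summed to 4.11 to 7.23 CPM in Lama4-/- and 4.85 to 5.32 CPM in WT ipsilateral libraries, and to 8.51 to 10.6 CPM in Lama4-/- and 6.25 to 8.0 CPM in WT contralateral libraries. Most of that sum was Cd4 and Lck, which other brain cells also express, while Cd3e, Cd3d, Cd3g and Cd8a had at most 9, 5, 4 and 6 reads. The globin gene Hbb-bs reached 3.43 CPM and the erythroid gene Alas2 2.38 CPM at most. Hba-a1, 32.5% of whose 50-base windows occur in no other gene, had 1 read in all. Globin genes have near copies whose shared reads may not be counted, so their level is a weak measure of blood left in the tissue. None of the 4 tested genes of the red blood cell list was called after stroke or between the genotypes.

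**Figure D5:**
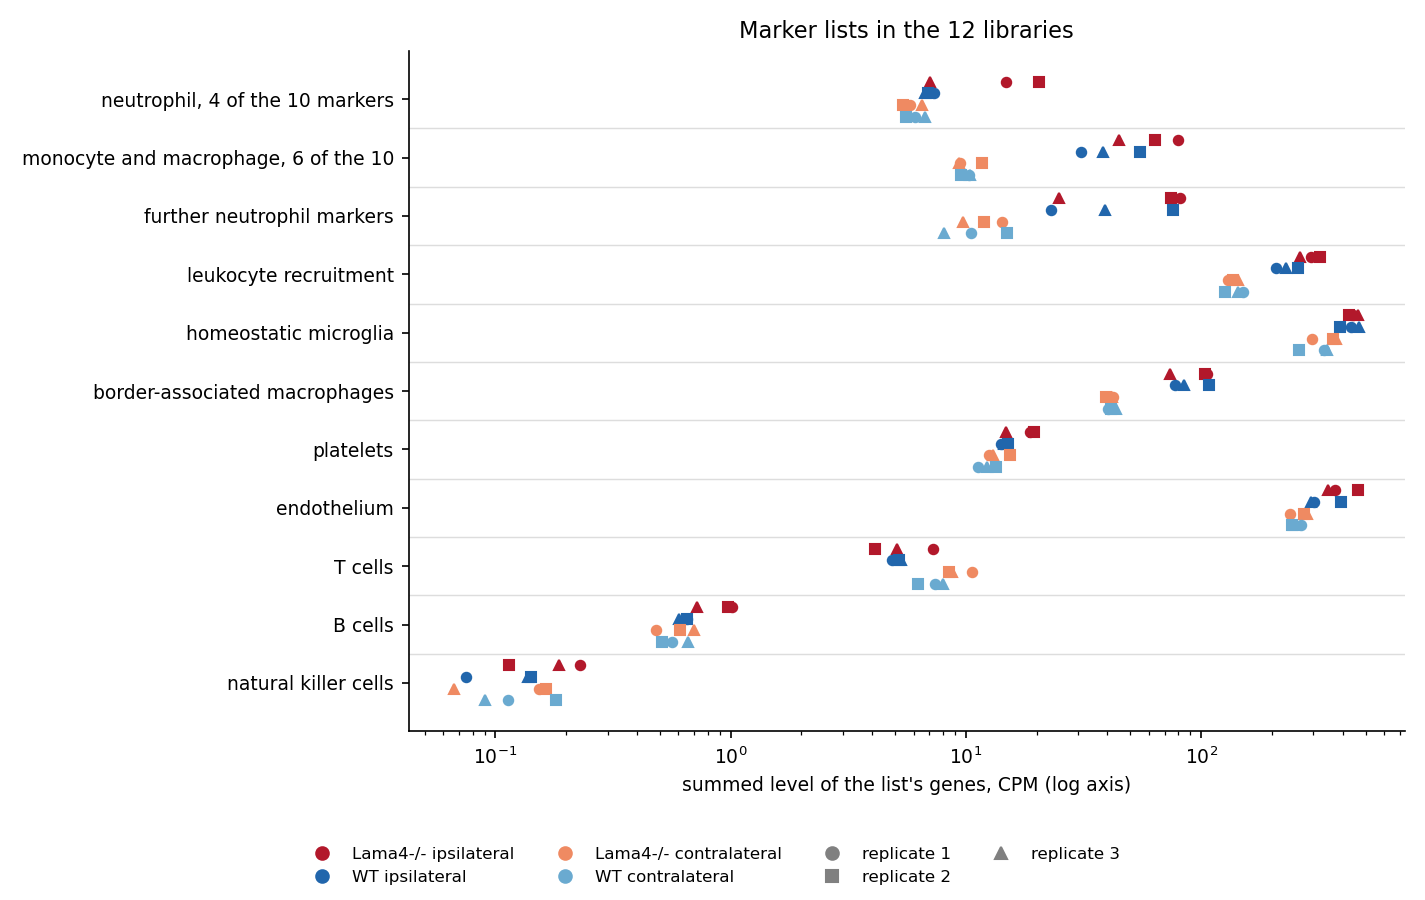
Summed level of each marker list in the 12 libraries (CPM, log axis), with 1 symbol per library, coloured by group and shaped by replicate. Neutrophil markers among the 10 run from 7.05 to 20.4 CPM in Lama4-/- and from 6.69 to 7.33 CPM in WT ipsilateral libraries. Csf3r alone makes 5.74 to 7.85 CPM of this in Lama4-/- and 4.56 to 5.32 CPM in WT. Monocyte and macrophage markers among the 10 run from 44.6 to 79.9 CPM in Lama4-/- and from 31.0 to 54.9 CPM in WT ipsilateral libraries. The 2 stroke groups overlap in all lists shown except leukocyte recruitment and B cells.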

How the data were processed

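Gene-level read counts, as the authors deposited them, were the starting point. The submitters' processing notes name STAR 2.6.0 and featureCounts 1.6.4 next to FastQC 0.72, bcl2fastq and DESeq2, with build mm10. Whether strand was used, and how multi-mapping reads were treated, is not stated there. The deposited table of comparisons gives log2 fold changes and adjusted p-values computed by the authors, quoted only where named. Another 48 columns of per-sample values in other sheets were not used.

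Counts were tested with edgeR 4.0.16 (TMM, filterByExpr, robust quasi-likelihood test, Benjamini-Hochberg adjustment over all genes tested, threshold 0.05) in R 4.3.3. Genotypes were compared within a hemisphere on 6 libraries, and hemispheres within a genotype on all 12. Alternatives were DESeq2 1.42.0, limma 3.58.1 voom, DESeq2 size factors, no filter, a filter of 1 CPM in 3 libraries, other sets of libraries, a replicate block and leaving out each library. CPM is a gene's reads over the library's total, which lay between 27537167 and 44113824 reads. The test code was checked on simulated data.

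Hemispheres with the same number deviated together (r from 0.109 to 0.337 in 6 of 6 pairs, against -0.25 to 0.03 in the 12 other pairs), so the numbers were taken to pair the hemispheres of a pool. Since 2 mice were pooled per library, p-values measure the spread between pools. Replicates differed by more than counting noise (chi-square over its degrees of freedom 9.19 to 32.0 over 12 pairs), and none was merged.

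The 10 genes and the marker lists were chosen with earlier results of these data known. Of each list at most the 4 tested genes with the highest mean CPM and the 4 with the smallest p in a comparison were named, with those whose low counts are given. The genes Hba-a2, Hbb-bt, Trac, Ighm and Chil1 were not analysed here.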

Additional observations from a re-analysis of the deposited data

How the results depend on the processing

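The 33 test values of the markers were recomputed 462 times in all under the alternatives; 441 kept direction and side of the threshold, 6 lost a call, 7 gained one and 8 changed sign. The sign changes were in differences near 0. With a library left out, the contralateral difference ran from -0.18 to 0.064 for Lyz2 and from -0.0058 to 0.66 for Msr1, turning without Lama4-/- contralateral replicate 1, and from -0.57 to 0.18 for S100a9, turning without Lama4-/- contralateral replicate 2. The interaction of Msr1 ran from -0.33 to 0.42; it was -0.33, -0.18 and -0.11 without WT contralateral replicate 2, WT ipsilateral replicate 1 and WT ipsilateral replicate 3, and -0.29 and -0.25 without Lama4-/- contralateral replicate 3 and Lama4-/- ipsilateral replicate 1. Of the markers, 2 were called between the ipsilateral genotypes with DESeq2. In WT stroke 5 were called with the replicate block, 6 on the 6 WT libraries and 2 to 3 with a library left out. In Lama4-/- stroke 6 to 7 were called with a library left out. The added one was Plac8, which entered the test only in some of these fits, through its Lama4-/- stroke libraries. In Lama4-/- stroke S100a8 lost its call with limma voom and on the 6 Lama4-/- libraries alone. Over all genes, the ipsilateral genotype comparison called 22 with DESeq2, 4 with the block, 3 on all 12 libraries and 1 to 5 with a library left out (1 as reported). The contralateral one called 17 with DESeq2, 1 with voom, 121 with the block and 1 to 9 with a library left out (2 as reported). WT stroke called 3608 with the block and 1347 to 1740 with a library left out (2361 as reported), Lama4-/- stroke 2286 to 3618 (3580 as reported), and the interaction 0 to 1. The causes were not tested. Between genotypes same-numbered libraries share only a number (r from -0.097 to 0.349, over 0.1 in 4 of 6 pairs), and the block called no marker there; beyond WT stroke it changed no marker call. Low counts limit Cd177 (at most 8 reads a library), Plac8 (at most 20) and Ly6c2 (at most 2).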

Other observations

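In the authors' deposited table of the ipsilateral comparison, the log2 fold changes of the 7 tested markers lay from 0.35 for Msr1 to 2.5 for Chil3. The markers not tested here are listed there as well, none with an adjusted p under 0.05. Plac8 had 1.65, Cd177 had 0.24, and Ly6c2, with at most 2 reads a library, had a negative value. The ratio of S100a8 to S100a9 reads ran from 0.556 to 0.780 in the Lama4-/- ipsilateral libraries and from 0.808 to 1.22 in the WT ipsilateral libraries, so these 2 groups did not overlap, on 15 to 245 reads a gene. In the contralateral libraries, on fewer reads, it ran more widely, from 0.370 to 1.58 in Lama4-/- and from 0.45 to 0.857 in WT. This ratio was picked after the values were seen and was not tested. Arg2, the mitochondrial arginase and the closest relative of Arg1, had a stroke change of -0.32 ± 0.16 in Lama4-/- (log2, SE, edgeR adjusted p = 0.161) and of -0.50 ± 0.16 in WT (edgeR adjusted p = 0.0536), and neither passed.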
